A study of Rattus norvegicus with 6 samples.

Results

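The genes described here encode the constitutive subunits of the proteasome, the protease complex that degrades ubiquitin-tagged proteins. They are the rows of the count tables whose gene name is Psma, Psmb, Psmc or Psmd followed directly by a number, without the interferon-inducible subunits Psmb8, Psmb9 and Psmb10. The tables hold 33 such genes among 18077 rows, and none of the 33 is repeated. By role they are 8 α-ring genes, 7 β-ring genes, 6 base ATPase genes, 3 base genes without ATPase activity, 8 lid genes and the assembly chaperone gene Psmd5. No row is named Psmb11, Psmd9 or Psmd10, and these genes were not analysed here.

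The proteasome is a barrel closed by a cap. The barrel, or core particle, has outer rings of α subunits, which form the gate, and inner rings of β subunits, of which Psmb5, Psmb6 and Psmb7 encode the ones that cut peptide bonds. The cap, or regulatory particle, consists of a base and a lid. A ring of ATPases in the base (Psmc genes) unfolds substrates, the non-ATPase base subunits receive ubiquitin chains, and the lid holds the enzyme that removes those chains. Each subunit has a fixed place in the complex, and in mammalian cells the transcription factor NFE2L1 is known to raise many of these genes together when proteasome activity falls. In heart muscle the complex degrades ubiquitin-tagged sarcomere and signalling proteins, and interferon can exchange the catalytic β subunits for their inducible counterparts.

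The cells, labelled neonatal rat cardiomyocytes, came from pups of 1 to 3 days, with pre-plating and BrdU used against fibroblasts. Every culture carried an adenovirus, received the saturated fatty acid palmitic acid at 500 µM for 24 h, and was harvested after 48 h, and its polyA RNA was sequenced. The 3 libraries labelled Ad-RNF128 carried a vector for RNF128, a ubiquitin ligase, and the 3 labelled Ad-GFP a vector for green fluorescent protein. One label protocol spells the gene once as RNF28; the titles give RNF128. The sources used here name no rat strain and no number of animals. Nothing says that the replicates were separate cultures, so a p-value below reflects sample-to-sample spread that may be technical.

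Library totals ran from 17099149 to 21708973 counts in Ad-RNF128 and from 16352843 to 21332585 counts in Ad-GFP. The rat gene Rnf128 had 1, 3 and 1 counts in Ad-RNF128 replicates 1 to 3, against 0, 2 and 1 counts in Ad-GFP replicates 1 to 3, so the counts do not show the overexpression and every direction below rests on the label. The cardiomyocyte label was checked on 12 markers, whose summed level was 53.7 to 137 CPM (counts scaled to a library total of 1000000) in Ad-RNF128 and 159.6 to 412 CPM in Ad-GFP. In Ad-GFP replicates 2 and 3 most of that sum was Tnnt2, cardiac troponin T, at 342 and 350 CPM, against 34.02 to 57.4 CPM in Ad-RNF128 and 13.3 CPM in Ad-GFP replicate 1. In Ad-GFP replicate 1 the largest part was Nkx2-5, a cardiac transcription factor, at 81.9 CPM, against 17.3 to 18.2 CPM in Ad-RNF128 and 13.9 and 13.7 CPM in Ad-GFP replicates 2 and 3. Cardiac myosin gene Myh6 was at no more than 16.02 CPM in any library and Nppa, atrial natriuretic peptide, at no more than 3.97 CPM. Ad-RNF128 replicate 3 stood apart on these markers, with Myh6 at 0.104 CPM, against 10.8 to 16.02 CPM in the other 5 libraries, and Nppa at 0; without it the same 8 members rose and the same 4 fell in the comparison below. The summed level of 8 fibroblast markers, most of it from Col1a1, Col1a2 and Col3a1, with Pdgfra, Dcn, Lum and Tcf21 at or near 0, was 10251 to 11145 CPM in Ad-RNF128, 38192 and 39798 CPM in Ad-GFP replicates 2 and 3, and 2956 CPM in Ad-GFP replicate 1. Smooth muscle markers summed to 5062 to 5634 CPM in Ad-RNF128 and 4695 to 5878 CPM in Ad-GFP, and endothelial markers to 6.73 to 8.01 CPM in Ad-RNF128 and 4.27 to 6.42 CPM in Ad-GFP. Within the smooth muscle list Myh11 was at 27.0 to 28.1 CPM in Ad-RNF128, against 7.42 and 9.09 CPM in Ad-GFP replicates 2 and 3. In Ad-GFP replicate 1 Myh11 was at 0.795 CPM. Tagln and Cnn1 also lay above Ad-GFP replicates 2 and 3 without overlap. Acta2, most of the sum, lay below them, at 3427 to 3899 CPM in Ad-RNF128, against 4045 and 4491 CPM. Myocd lay below them as well, at 41.7 to 43.7 CPM in Ad-RNF128, against 51.4 and 52.1 CPM. Skeletal myogenic markers, 3 of 6 in the tables, summed to 37.8 to 42.0 CPM in Ad-RNF128, against 85.2 and 87.6 CPM in Ad-GFP replicates 2 and 3 and 76.1 CPM in Ad-GFP replicate 1. Of these, Myod1 and Myog lay below Ad-GFP replicates 2 and 3 in Ad-RNF128, and Mymk lay above them. Mymk was at 4.10 to 5.09 CPM in Ad-RNF128, 1.72 and 1.69 CPM in Ad-GFP replicates 2 and 3, and 8.93 CPM in Ad-GFP replicate 1. Macrophage and leukocyte markers summed to 21.8 to 22.2 CPM in Ad-RNF128, against 16.7 and 16.5 CPM in Ad-GFP replicates 2 and 3 and 34.2 CPM in Ad-GFP replicate 1. Most of each of these sums was Cd14, and Ptprc and Adgre1 were at or near 0 in every library. The part of these marker levels in the results below was not tested. In such bulk samples fewer cells of a type and less RNA per cell cannot be told apart. Ad-GFP replicate 1 stood apart from every other library, with Spearman correlations of 0.776 to 0.818 to the rest. It had no read for 3551 genes, where the other libraries had none for 1190 to 2288. It is therefore described separately, and Ad-RNF128 was set mainly against Ad-GFP replicates 2 and 3.

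Promoter sequence was examined because the subunit genes are known to be controlled together. RefSeq promoters (build GRCr8, while the counts were made on mRatBN7.2) matched 29 of the 33 genes by symbol, and the 250 bases before each start were searched on both strands. The core of the antioxidant response element, TGACNNNGC, to which NFE2L1 and its relative NFE2L2 bind, occurred in 5 of the 29 (17.2%), against 10.1% of all 33469 promoters of the same length. The holders were Psma3, Psmb2, Psmb5, Psmb6 and Psmd1. The CCAAT box occurred in 14 of the 29 (48.3%), against 34% of all promoters. Neither match shows that a site is used. The sequences are shown for the catalytic genes Psmb5 (chr15:32047380-32047629, minus strand) and Psmb6 (chr10:55737638-55737887, plus strand), for Psmd1 (chr9:94157721-94157970, plus strand), which holds the same element but had lower CPM in Ad-RNF128 than in Ad-GFP replicates 2 and 3, and for Psmc3 (chr3:97487393-97487642, plus strand), the member with the largest rise. Each is written 5′ to 3′ in the direction of its gene, with either motif in capitals.
Psmb5: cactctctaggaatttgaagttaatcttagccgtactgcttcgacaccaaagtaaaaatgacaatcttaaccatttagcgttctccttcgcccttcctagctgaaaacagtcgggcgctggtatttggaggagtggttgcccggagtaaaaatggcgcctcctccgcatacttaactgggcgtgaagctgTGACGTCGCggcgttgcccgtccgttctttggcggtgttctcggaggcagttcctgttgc
Psmb6: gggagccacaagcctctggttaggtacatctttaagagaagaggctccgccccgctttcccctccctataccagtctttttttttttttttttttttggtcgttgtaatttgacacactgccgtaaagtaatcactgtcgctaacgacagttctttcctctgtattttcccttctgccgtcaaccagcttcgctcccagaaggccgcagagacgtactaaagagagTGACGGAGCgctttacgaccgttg
Psmd1: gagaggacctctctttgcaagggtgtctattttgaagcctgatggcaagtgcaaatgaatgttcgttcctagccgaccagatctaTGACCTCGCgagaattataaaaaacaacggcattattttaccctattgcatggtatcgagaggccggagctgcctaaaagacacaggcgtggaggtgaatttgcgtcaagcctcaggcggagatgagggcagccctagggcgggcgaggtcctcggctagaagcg
Psmc3: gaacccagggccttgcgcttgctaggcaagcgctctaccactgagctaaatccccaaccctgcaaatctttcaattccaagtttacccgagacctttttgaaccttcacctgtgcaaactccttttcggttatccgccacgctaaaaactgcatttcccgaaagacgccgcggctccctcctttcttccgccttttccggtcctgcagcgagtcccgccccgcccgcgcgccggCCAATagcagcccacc
The first 3 hold the response element and no CCAAT box, and Psmc3 holds a CCAAT box and no response element.

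As a set, the constitutive proteasome genes changed little between the libraries labelled Ad-RNF128 and Ad-GFP replicates 2 and 3. Psma8, the testis form of an α subunit, had 3, 4 and 3 counts in Ad-RNF128 and 5 and 2 counts in Ad-GFP replicates 2 and 3, did not pass the filter on low counts and was not tested. Of the other 32 genes, 8 rose and 4 fell (edgeR quasi-likelihood test, adjusted p under 0.05 over all genes), and 20 did not pass. The background was high: 28.9% of the 13173 genes tested rose, 28% fell, and 56.9% did either. The 12 members called are 37.5% of those tested, a smaller share than among all genes. The median log2 change, Ad-RNF128 over Ad-GFP, was 0.07 over the 32 members and 0.01 over all genes, and the median size was 0.12 for members and 0.33 for all genes. One member, Psmc3, reached 0.5 on the log2 scale, against 32.9% of all genes, and none of the 32 reached 1, against 12.5%. All genes tested stand in these comparisons, without matching for expression level. The standard errors of the members' log2 changes ran from 0.06 to 0.09.

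These calls depend on scaling. The fit used TMM factors of 1.04 to 1.05 for Ad-RNF128 and 0.92 and 0.96 for Ad-GFP, and with library totals alone the median of all genes moved to 0.17. On that scale 19 members were higher and 1 was lower (background 40.7% and 18.3%), and the one lower was Psmd13, a lid gene. The share of members called was then no longer smaller than that among all genes. The CPM values printed below are on library totals, so they lie higher in Ad-RNF128, relative to Ad-GFP, than the fitted changes. In CPM, 21 of the 32 members lay above both Ad-GFP replicates 2 and 3 in all 3 Ad-RNF128 libraries and 4 lay below, where 48.7% and 23.6% of all tested genes did.

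**Figure D1:**
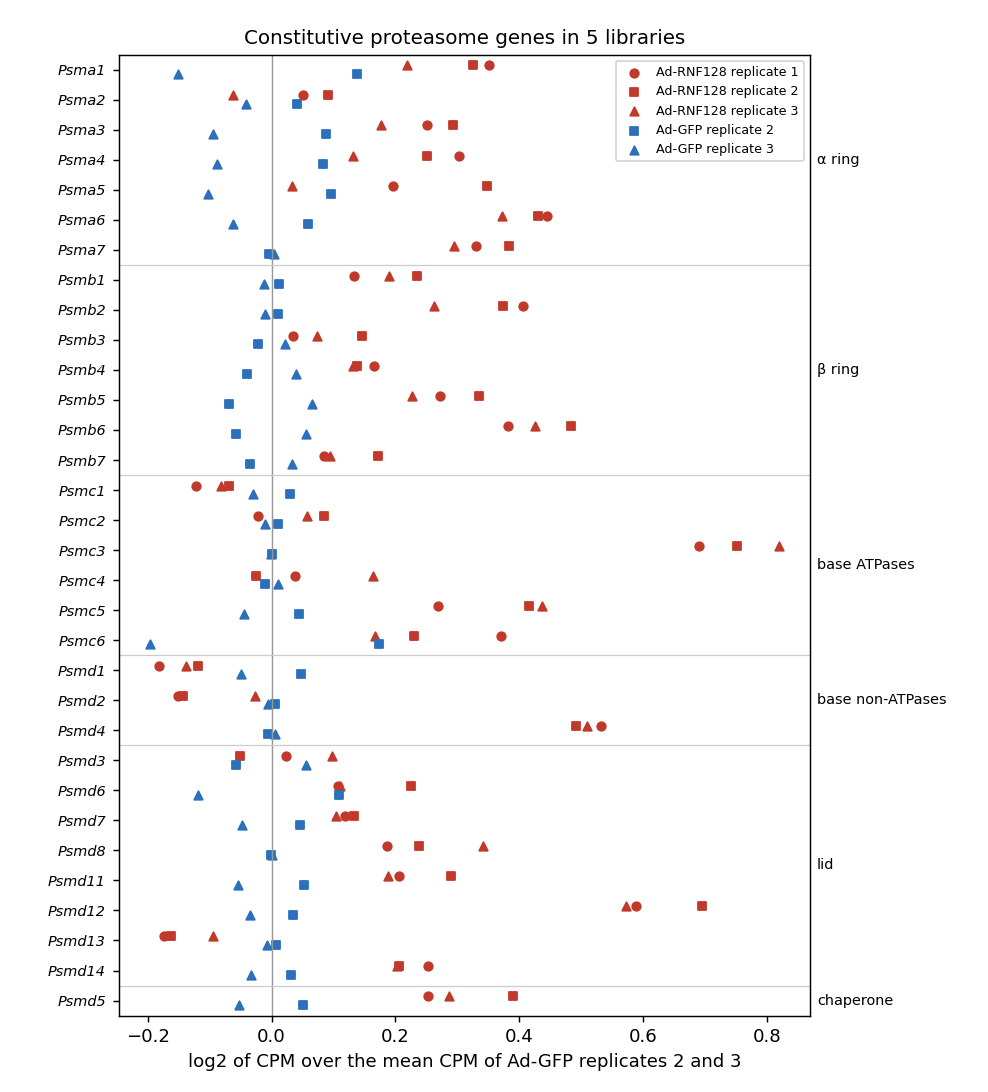
Each row is a tested member, and each point is the log2 of its CPM in one library over its mean CPM in Ad-GFP replicates 2 and 3 (red, Ad-RNF128 replicates 1 to 3; blue, Ad-GFP replicates 2 and 3). Psmc3, Psmd12 and Psmd4 lie farthest to the right in Ad-RNF128, and Psmc1, Psmd1, Psmd2 and Psmd13 are the 4 whose red points all lie left of the blue ones.

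Among the catalytic β subunits, Psmb6 rose and the other two did not pass. Psmb6 (ENSRNOG00000019551), the caspase-like subunit, was at 80.7, 86.6 and 83.3 CPM in Ad-RNF128 replicates 1, 2 and 3, against 59.5 and 64.4 CPM in Ad-GFP replicates 2 and 3. Its log2 change was 0.28 ± 0.07 (SE), with an edgeR adjusted p of 0.00474. Psmb5 (ENSRNOG00000013386), the chymotrypsin-like subunit, was at 118, 123 and 115 CPM in Ad-RNF128, against 93.3 and 102 CPM in Ad-GFP. The groups did not overlap in CPM, but the fitted log2 change of 0.12 ± 0.07 did not pass (edgeR adjusted p = 0.161). Psmb7 (ENSRNOG00000011732), the trypsin-like subunit, was at 138, 146 and 139 CPM in Ad-RNF128, against 127 and 133 CPM in Ad-GFP, with a log2 change of -0.04 ± 0.07 (edgeR adjusted p = 0.654). Its fitted change is smaller than its standard error and has the sign opposite to the CPM difference.

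Of the structural β-ring genes, Psmb2 (ENSRNOG00000011463) rose. It was at 103, 101 and 93.2 CPM in Ad-RNF128, against 78.3 and 77.2 CPM in Ad-GFP, with a log2 change of 0.19 ± 0.07 (edgeR adjusted p = 0.0241). Psmb1, Psmb3 and Psmb4 had log2 changes between -0.07 and 0.03, none of which passed. In all, 2 of 7 β-ring genes rose and none fell, with a median log2 change of 0.03.

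The α ring gave the same count, with 2 of 7 tested genes higher, none lower and a median of 0.09. Psma6 (ENSRNOG00000007114) was at 143, 141 and 136 CPM in Ad-RNF128, against 109 and 101 CPM in Ad-GFP. Its log2 change was 0.26 ± 0.06 (edgeR adjusted p = 0.00287). Psma7 (ENSRNOG00000056853), which encodes another α-ring subunit, was at 203, 211 and 198 CPM in Ad-RNF128, against 161 and 162 CPM in Ad-GFP, and rose by 0.18 ± 0.06 on the log2 scale (edgeR adjusted p = 0.0237). Psma1 (ENSRNOG00000011745) was at 224, 220.2 and 204 CPM in Ad-RNF128, against 193 and 158 CPM in Ad-GFP. The groups did not overlap, but the 2 controls lay far apart, and its log2 change of 0.15 ± 0.08 did not pass (edgeR adjusted p = 0.11). Psma2, Psma3, Psma4 and Psma5 lay between -0.13 and 0.09 and did not pass.

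The 6 ATPase genes, whose products form 1 ring, did not move together. Psmc3 (ENSRNOG00000011414), whose subunit docks into the α ring by its tail, had the largest change of all members. It was at 323, 337 and 353 CPM in Ad-RNF128, against 200.1 and 200.1 CPM in Ad-GFP, a log2 change of 0.60 ± 0.07 or 1.52-fold (edgeR adjusted p = 2.55e-06). Psmc5 (ENSRNOG00000010038) was at 116, 128 and 130.3 CPM in Ad-RNF128, against 99.2 and 93.2 CPM in Ad-GFP, and rose by 0.22 ± 0.07 on the log2 scale (edgeR adjusted p = 0.0147). Psmc1 (ENSRNOG00000003951), which also docks into the α ring, fell, at 166, 172 and 171 CPM in Ad-RNF128 and 184 and 177 CPM in Ad-GFP. Its log2 change was -0.24 ± 0.06 (edgeR adjusted p = 0.00356). Psmc2, Psmc4 and Psmc6 had log2 changes between -0.11 and 0.11 and did not pass, and the median of the 6 was 0.01.

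All 3 base genes without ATPase activity passed, in different directions. Psmd4 (ENSRNOG00000021042), the ubiquitin receptor, was at 179.7, 175 and 177 CPM in Ad-RNF128, against 124 and 125 CPM in Ad-GFP. It rose by 0.36 ± 0.06 on the log2 scale (edgeR adjusted p = 0.00023). Psmd1 (ENSRNOG00000017730), a large scaffold subunit, was at 183, 191 and 189 CPM in Ad-RNF128, against 215 and 201 CPM in Ad-GFP, a log2 change of -0.30 ± 0.06 (edgeR adjusted p = 0.000818). The other scaffold gene, Psmd2 (ENSRNOG00000001719), was at 445, 447 and 485 CPM in Ad-RNF128 and 496 and 492 CPM in Ad-GFP, with a log2 change of -0.26 ± 0.07 (edgeR adjusted p = 0.0034). In the sum of CPM, this group stood to the core genes as 0.409, 0.402 and 0.449 in Ad-RNF128. In Ad-GFP replicates 2 and 3 the ratio was 0.491 and 0.499, without overlap. The group's own sum, mostly Psmd2, overlapped at 808, 813 and 851 CPM in Ad-RNF128 and 835 and 818 CPM in Ad-GFP. The core sum was 1976, 2022 and 1893.5 CPM in Ad-RNF128, against 1701 and 1639 CPM in Ad-GFP. For the ATPases the ratio to the core was 0.504, 0.506 and 0.553 in Ad-RNF128 and 0.505 and 0.5004 in Ad-GFP, which overlap.

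In the lid, 1 of 8 genes rose and 1 fell, with a median log2 change of 0.03. Psmd12 (ENSRNOG00000003117), a scaffold subunit of the lid, was at 162, 175 and 161 CPM in Ad-RNF128, against 111 and 105 CPM in Ad-GFP, and rose by 0.47 ± 0.07 on the log2 scale (edgeR adjusted p = 3.13e-05). Psmd13 (ENSRNOG00000014109), a subunit of the same fold, was at 179, 180.3 and 189 CPM in Ad-RNF128, against 203 and 201 CPM in Ad-GFP, a log2 change of -0.30 ± 0.06 (edgeR adjusted p = 0.001). Psmd3 (ENSRNOG00000028103), another lid scaffold gene, overlapped between the groups at 156, 149 and 165 CPM in Ad-RNF128 and 148 and 159.8 CPM in Ad-GFP, and its log2 change of -0.13 ± 0.07 did not pass (edgeR adjusted p = 0.139). The remaining 5, among them Psmd14, the enzyme that removes ubiquitin chains, and its partner Psmd7, lay between -0.03 and 0.10 and did not pass. The sum of lid CPM over core CPM was 0.603, 0.603 and 0.643 in Ad-RNF128, against 0.645 and 0.649 in Ad-GFP. These ratios also did not overlap, by a narrow margin. Psmd5 (ENSRNOG00000018809), a chaperone of base assembly, was at 78.1, 85.9 and 80.0 CPM in Ad-RNF128, against 67.9 and 63.2 CPM in Ad-GFP, and its log2 change of 0.16 ± 0.07 did not pass (edgeR adjusted p = 0.0627).

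**Figure D2:**
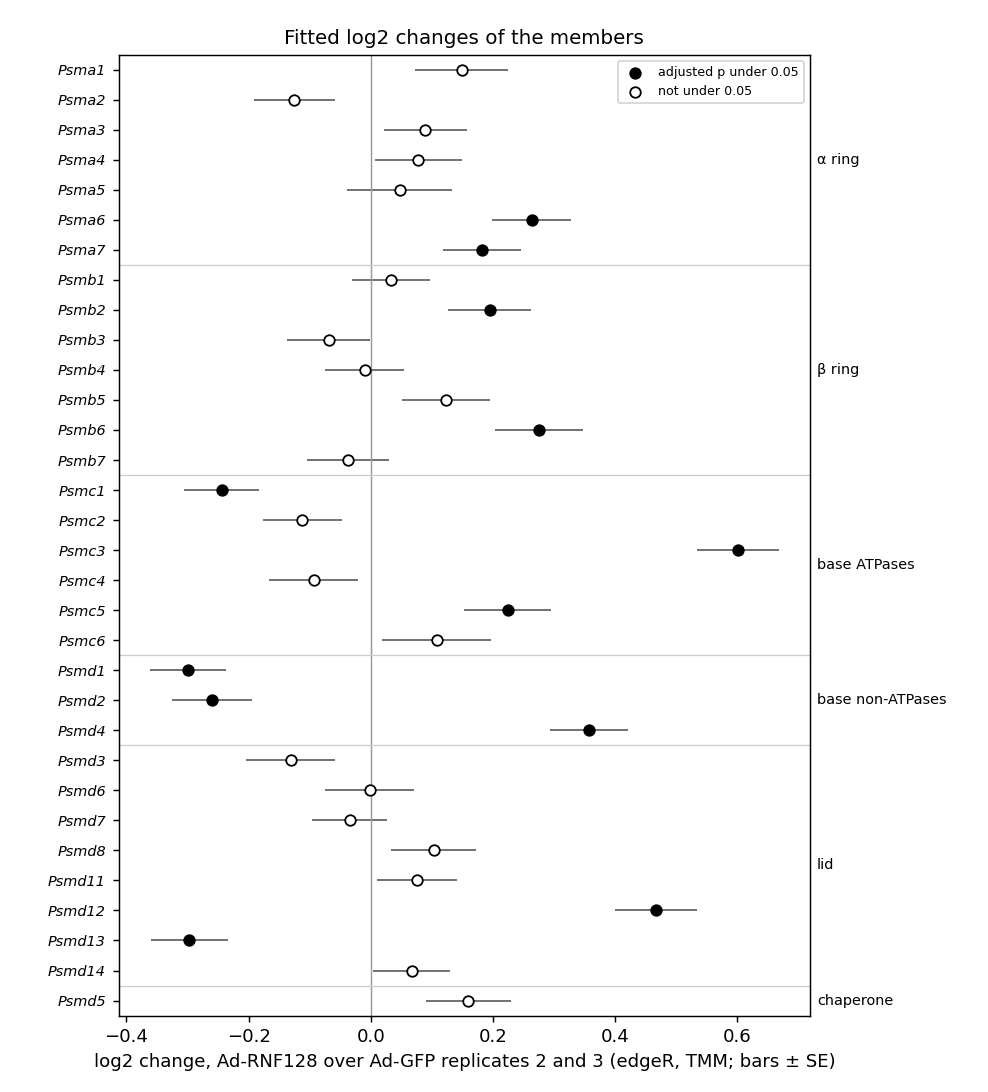
Points are the fitted log2 changes of the 32 tested members, Ad-RNF128 over Ad-GFP replicates 2 and 3, with bars of ± SE; filled points passed an adjusted p of 0.05. Psmc3 at 0.60 and Psmd12 at 0.47 are the highest, Psmd1 and Psmd13 at -0.30 the lowest, and open points make up 20 of the 32.

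Leaving out single libraries ended 4 of the 8 rises in at least 1 case and none of the 4 falls. Psmb2 did not pass without Ad-RNF128 replicate 1, Ad-GFP replicate 2 or Ad-GFP replicate 3, nor Psma7 without Ad-RNF128 replicate 2 or Ad-GFP replicate 2. Psmb6 did not pass without Ad-GFP replicate 2, nor Psmc5 without Ad-GFP replicate 3. Psma6, Psmc3, Psmd4 and Psmd12 passed in every one of these 5 fits, as did Psmc1, Psmd1, Psmd2 and Psmd13. The 3 genes Psmc1, Psmd1 and Psmd2 no longer passed with library totals alone. Some values depended on which control was left out. Without Ad-GFP replicate 2 the log2 change was 0.032 for Psmb5, 0.20 for Psmb6 and 0.27 for Psma1. Without Ad-GFP replicate 3 it was 0.22 for Psmb5, 0.36 for Psmb6 and 0.034 for Psma1. Other members entered the set of rises. Psmd5 did so without Ad-RNF128 replicate 1, Psma1 and Psmc6 without Ad-GFP replicate 2, and Psmb5 without Ad-GFP replicate 3. The fits without a control keep a lone control.

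The same genes stood in very different proportions in Ad-GFP replicate 1. In CPM, 12 of the 32 tested members lay above all other 5 libraries in it, 18 lay below, and Psmc5 and Psmd2 lay within. Among all 12863 genes tested in the fit of 6 libraries, 24.5% lay above and 66.2% below. The split depends on scaling: with TMM factors 16 members lay above, 14 below, and Psma2 and Psmd13 within (all genes, 39.1% above and 53.3% below). In CPM, 6 of 7 tested α-ring genes lay below, all but Psma7, and 6 of 7 β-ring genes lay above, all but Psmb2. With TMM factors 5 of the 7 α-ring genes lay below and Psma7 above, and all 7 β-ring genes lay above. Psmb5 was at 832 CPM in it, Psmb6 at 302 CPM and Psmb7 at 231 CPM, each above the other 5 libraries. Psma4, an α-ring gene, was at 0.856 CPM, against 131 and 116 CPM in Ad-GFP replicates 2 and 3, while Psma7 was at 706 CPM. The summed β-ring level was 3.85 times the summed α-ring level in this library, against 0.798 to 0.851 in Ad-RNF128 and 0.795 and 0.914 in Ad-GFP replicates 2 and 3. All of these proportions come from 1 library.

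The regulatory particle was split in it as well. The ATPase genes ranged from Psmc6 at 0.489 CPM to Psmc3 at 1038 CPM in this library, against 109 and 84.0 CPM for Psmc6 in Ad-GFP replicates 2 and 3. In the base, Psmd1 was at 4.1 CPM while its fellow scaffold gene Psmd2 was at 481 CPM. Lid gene Psmd8 was at 619 CPM, against 122 CPM in each of the other controls, and Psmd6 was at 8.93 CPM, against 96.1 and 82.1 CPM. The 32 members spread over a log2 SD of 2.91 in Ad-GFP replicate 1, measured as each gene's CPM over its mean in the other 5 libraries. That SD was 0.086 to 0.097 in Ad-RNF128 and 0.143 and 0.148 in Ad-GFP replicates 2 and 3, though these 5 libraries also form the mean. Over all genes with a mean of at least 1 CPM and a read, it was 0.283 to 0.329 in Ad-RNF128, 0.657 and 0.633 in Ad-GFP replicates 2 and 3, and 2.83 in Ad-GFP replicate 1. The members were thus spread about as widely as other genes in that library and more narrowly than other genes in the remaining 5. The other genes were not matched to the members for expression level.

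**Figure D3:**
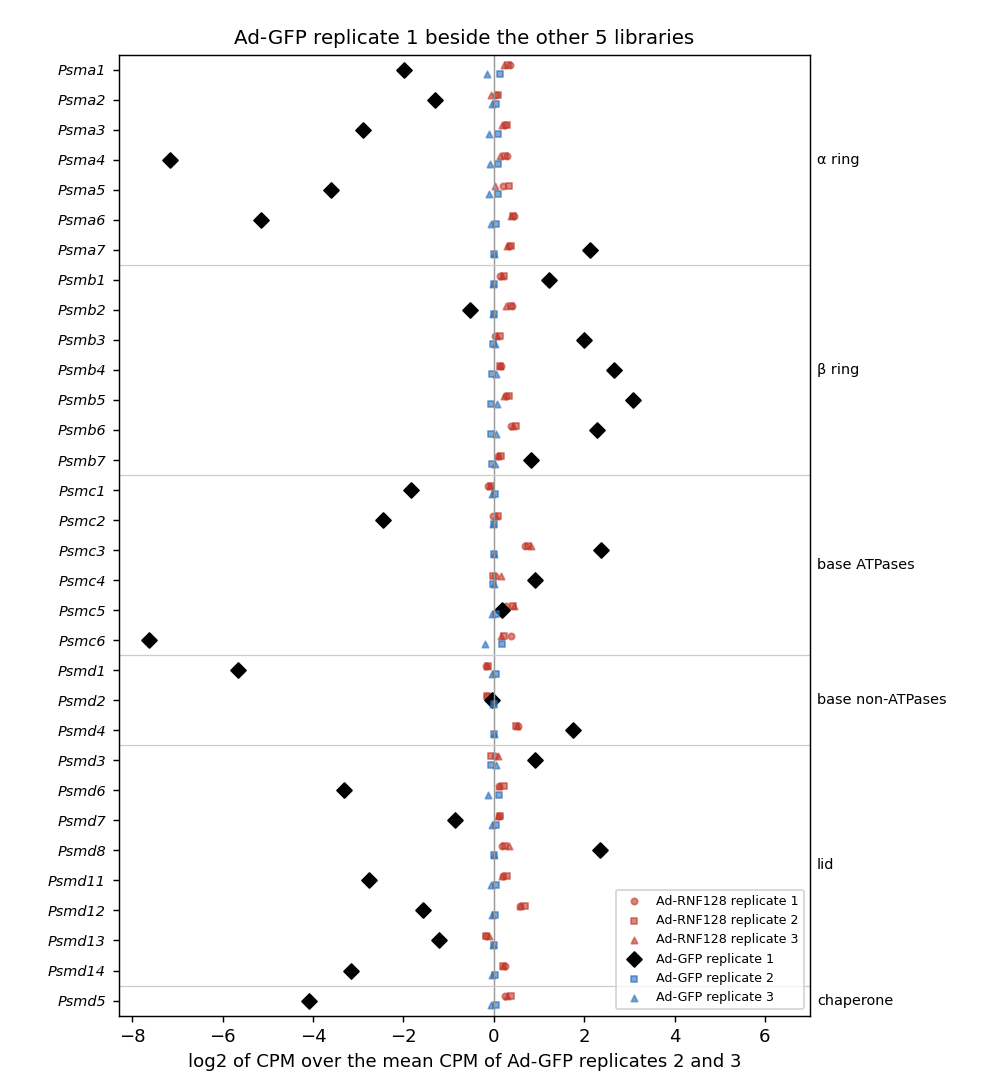
As in the plot of 5 libraries, with Ad-GFP replicate 1 added as black diamonds and the axis widened. The diamonds run from -7.62 (Psmc6) to 3.09 (Psmb5) on the log2 scale, on the right for most β-ring genes and on the left for most α-ring genes, while the other 5 libraries stay close to 0.

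With all 6 libraries in the fit, none of the 32 members passed in either direction (edgeR, background 0%), none had an unadjusted p under 0.05, and DESeq2 (background 3%) and limma-voom (background 0.109%) also called 0. This does not show that the members did not differ. Standard errors were then 0.30 to 1.29 on the log2 scale. The median log2 change was 0.46 for the α ring, -1.88 for the β ring, -0.24 for the ATPases, -0.77 for the other base genes and 0.12 for the lid. These medians rest on a TMM factor of 0.47 for Ad-GFP replicate 1, against 1.08 to 1.22 for the other 5. With library totals alone they were 0.72, -0.77, 0.31, -0.09 and 0.51 in that order, so the ATPase median changed sign with the scaling. With median-of-ratios size factors the lid median was -0.06 and the β-ring median -2.37, and with limma-voom the β-ring median was -0.71. Of the 8 genes that rose without that library, Psmb2, Psmb6, Psma7, Psmc3, Psmc5 and Psmd4 had negative values over all 6. In CPM, 11 members lay above all 3 Ad-GFP libraries in every Ad-RNF128 library and none lay below, where 30.4% and 3.59% of all tested genes did.

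Some other genes of the pathway differed by more than any constitutive subunit when set against Ad-GFP replicates 2 and 3. In that comparison 28.9% of all tested genes rose and 28% fell, the background for the counts of genes below. All 3 inducible catalytic subunits rose. Psmb9, the counterpart of Psmb6, was at 50.1, 56.1 and 45.8 CPM in Ad-RNF128, against 3.16 and 4.31 CPM in Ad-GFP, a log2 change of 3.59 ± 0.14 (edgeR adjusted p = 1.78e-11). Psmb8, the counterpart of Psmb5, was at 27.1, 28.8 and 30.3 CPM in Ad-RNF128, against 6.54 and 6.66 CPM in Ad-GFP, a log2 change of 1.97 ± 0.10 (edgeR adjusted p = 7.73e-10). Neither gene overlapped between these groups. Psmb10, the counterpart of Psmb7, rose by 0.67 ± 0.08 on the log2 scale (edgeR adjusted p = 6.36e-06). The count ratio of Psmb9 to Psmb6 was 0.620, 0.647 and 0.550 in Ad-RNF128, 0.0530 and 0.0670 in Ad-GFP replicates 2 and 3, and 0.191 in Ad-GFP replicate 1, which held Psmb9 itself at 57.8 CPM. Over all 6 libraries the log2 changes of Psmb8, Psmb9 and Psmb10 were -1.56, -0.05 and -1.44, and none passed.

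Most genes for the alternative caps of the core also passed. Of 5 genes for activators and an inhibitor, 3 rose and 1 fell. The activator gene Psme3 did not pass, with a log2 change of 0.01 ± 0.06 (edgeR adjusted p = 0.883). Psme2, part of the interferon-inducible activator, was at 157, 161 and 152 CPM in Ad-RNF128, against 40.4 and 44.8 CPM in Ad-GFP, a log2 change of 1.72 ± 0.08 (edgeR adjusted p = 1.07e-10). Its partner Psme1 was at 139.7, 154 and 145 CPM in Ad-RNF128, against 54.6 and 58.0 CPM in Ad-GFP, and rose by 1.22 ± 0.07 on the log2 scale (edgeR adjusted p = 3.77e-09). Psmf1, an inhibitor of the isolated core, rose by 0.80 ± 0.07 on the log2 scale, and Psme4, a nuclear activator, had a log2 change of -0.57 ± 0.07; these 2 and Psmb10 were named after their values were seen. Ad-GFP replicate 1 held Psme2 at 489.8 CPM and Psme1 at 310.0 CPM, above all other libraries. With that library in the fit, Psme2 had a log2 change of -1.54 and Psme1 of -1.08, and neither passed.

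Of 5 genes of core assembly 3 rose and none fell. The share that passed, 60%, was close to the 56.9% of all tested genes. Pomp, which guides the β ring into the core, was at 239, 253 and 219 CPM in Ad-RNF128, against 168 and 159 CPM in Ad-GFP, a log2 change of 0.38 ± 0.07 (edgeR adjusted p = 0.000334). Psmg4, a chaperone of α-ring assembly, was at 13.7, 13.9 and 11.2 CPM in Ad-RNF128, against 8.36 and 7.78 CPM in Ad-GFP replicates 2 and 3. It rose by 0.53 ± 0.13 on the log2 scale (edgeR adjusted p = 0.00286). Ad-GFP replicate 1 held Psmg4 at 34.8 CPM, above all other libraries, and Pomp at 67.3 CPM, below them. With that library in the fit the log2 change was -1.47 for Psmg4 and 0.39 for Pomp, and neither passed. Among 6 genes of subunits and enzymes bound to the cap, 1 rose and 2 fell. The riser was Sem1, a small lid subunit whose name falls outside the member rule. It was at 75.7, 83.4 and 62.8 CPM in Ad-RNF128, against 51.8 and 52.5 CPM in Ad-GFP replicates 2 and 3 (log2 change 0.35 ± 0.10, edgeR adjusted p = 0.00626). Ad-GFP replicate 1 held Sem1 at 115 CPM, above all other libraries, and Usp14 at 3.91 CPM, below them. With that library in the fit Sem1 had a log2 change of -0.90 and did not pass. Usp14, a deubiquitinase of the base, had a log2 change of -0.18 ± 0.06 (edgeR adjusted p = 0.0265), although its CPM overlapped at 120.4, 122 and 114 in Ad-RNF128 and 126 and 117 in Ad-GFP. It did not pass with library totals alone (log2 change -0.027), nor without Ad-GFP replicate 2 or any one of the Ad-RNF128 replicates (-0.18 to -0.14).

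The largest difference in the pathway was that of Vcp (ENSRNOG00000034242), the ATPase that extracts ubiquitinated proteins for the proteasome and takes part in the release of NFE2L1 from the endoplasmic reticulum. It was at 51.2, 36.8 and 43.3 CPM in Ad-RNF128, against 611 and 480.2 CPM in Ad-GFP replicates 2 and 3 and 785 CPM in Ad-GFP replicate 1. The groups were far apart without overlap in all 6 libraries, a separation in this direction that 3.59% of tested genes showed. Against Ad-GFP replicates 2 and 3 the log2 change was -3.80 ± 0.11, or 13.9-fold lower (edgeR adjusted p = 1.37e-12), and 10 of the 13173 genes tested had a lower value. Over all 6 libraries it was -4.63 ± 0.69 and did not pass (edgeR adjusted p = 0.144). In CPM on library totals, Ad-GFP replicate 1 lay within 1.44-fold of the mean of the other controls for Vcp. On that scale 12% of tested genes lay as close or closer. The closeness depends on scaling. TMM factors over all 6 libraries were 0.47 for Ad-GFP replicate 1 and 1.10 and 1.08 for Ad-GFP replicates 2 and 3. With these factors Ad-GFP replicate 1 lies further above the other controls. That library stood apart for most genes, and the Vcp row was not checked against the reads, which were not analysed here.

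Most other genes of NFE2L1 control did not pass. Of the 7 genes listed for NFE2L1 control, Vcp fell, Nfe2l2 rose and 5 did not pass, among them Nfe2l1 and the Vcp cofactor genes Ufd1 and Nploc4. Nfe2l2, which encodes the related antioxidant factor, was at 219, 216 and 197 CPM in Ad-RNF128, against 125 and 98.5 CPM in Ad-GFP, a log2 change of 0.77 ± 0.08 (edgeR adjusted p = 2.24e-06). Of 7 ubiquitin and shuttle genes reported, 2 rose and 2 fell. Rps27a, which encodes ubiquitin fused to a ribosomal protein, was at 602, 645 and 510.2 CPM in Ad-RNF128, against 267 and 291 CPM in Ad-GFP, a log2 change of 0.91 ± 0.09 (edgeR adjusted p = 7.23e-07). The row of its processed copy Rps27a-ps1 had a log2 change of -0.86 ± 0.15 (edgeR adjusted p = 0.000252), at 131, 122 and 204 CPM in Ad-RNF128 and 236 and 260.4 CPM in Ad-GFP, and reads that fit both rows cannot be told apart. Uba1, the enzyme that activates ubiquitin, was at 344.1, 356 and 379 CPM in Ad-RNF128, against 381 and 393 CPM in Ad-GFP, a log2 change of -0.26 ± 0.07 (edgeR adjusted p = 0.00408). The groups lay close together without overlap in CPM, and with library totals alone the log2 change was -0.11 and did not pass.

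**Figure D4:**
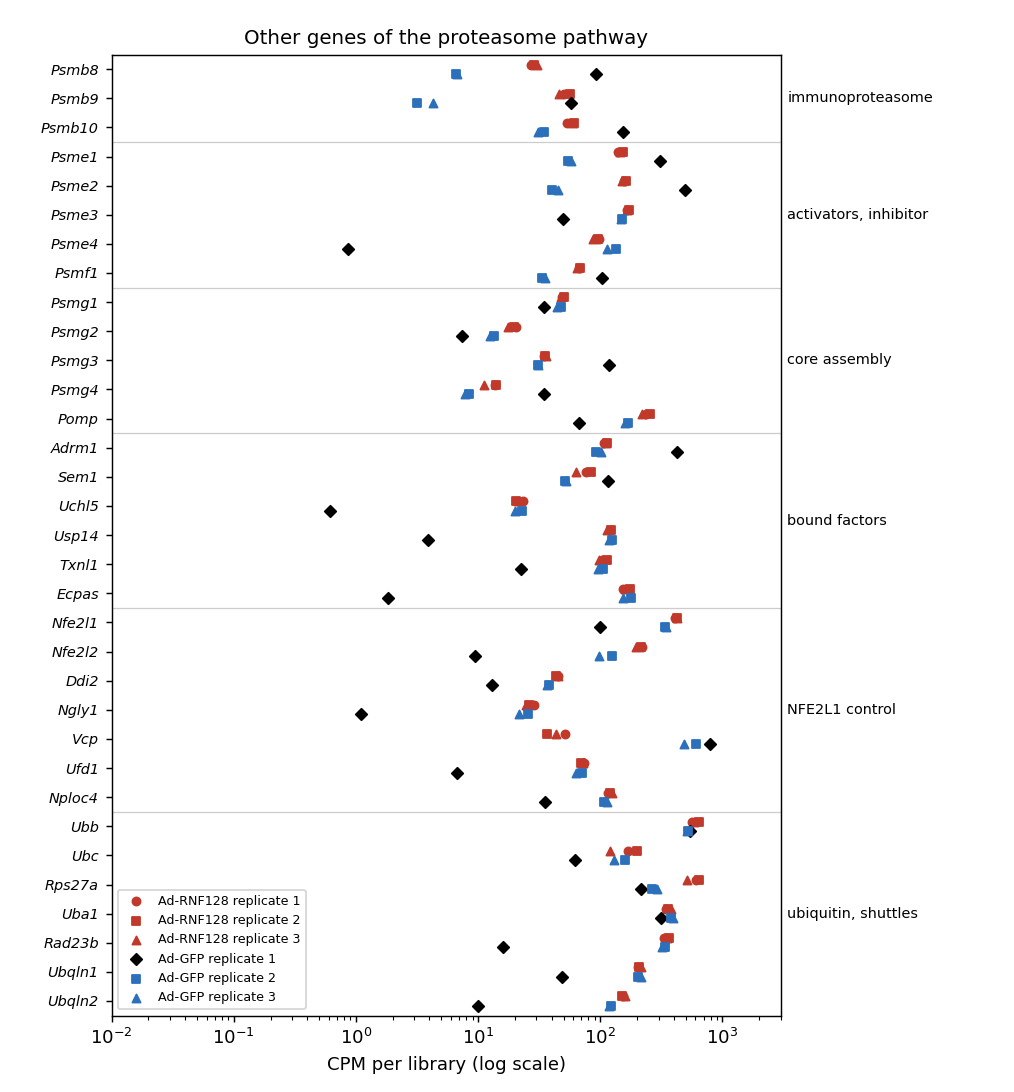
Each row is a gene of the pathway outside the constitutive subunits, and each point is its CPM in one library on a log axis (red, Ad-RNF128; black diamonds, Ad-GFP replicate 1; blue, Ad-GFP replicates 2 and 3). Psmb8, Psmb9, Psme1 and Psme2 have red points right of the blue ones and diamonds at or beyond the red, and Vcp is the row with its red points far to the left of all 3 Ad-GFP libraries.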

How the data were processed

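RNA sequencing of polyA RNA from 6 libraries, 3 labelled Ad-RNF128 and 3 labelled Ad-GFP, was analysed from the deposited tables of read counts per gene, 1 per library. Per the submitters' processing notes, HISAT2, HTSeq 0.13.5 and build mRatBN7.2 were used. The sources used here do not give the strand setting, the annotation or the treatment of shared reads. The deposited values of Ad-GFP replicate 1 were handled like estimated counts, because 1 value, 344.5, is not whole, and this value was rounded. The tables hold 18077 rows, of which 106 repeat an ID; where a gene name was repeated, the row with the highest mean count was read.

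CPM is a count times 1000000 over the library total. Differential expression was tested on all genes with edgeR 4.0.16 in R 4.3.3 (filterByExpr, TMM, quasi-likelihood F-test, Benjamini-Hochberg adjustment, threshold 0.05), in 5 libraries without Ad-GFP replicate 1 and in all 6. Each SE was derived from the log2 change and its F statistic. Both fits were tested on simulated data with known changes, all larger than any member's change in the fit of 5. The fit of 5 libraries recovered them and the fit of 6 did not. Each simulated library was drawn with the spread estimated in the same fit, and none was made to stand apart as Ad-GFP replicate 1 does. The simulation therefore shows only how each fit behaves at its own spread. A lack of calls in the fit of 6 therefore says nothing about stability. Whether the fit of 5 recovers changes as small as those of the members was not tested. Alternatives were other scalings, DESeq2 1.42.0, limma-voom (limma 3.58.1), other filters, thresholds and a replicate block, and each library left out. The members, gene lists and alternatives were chosen with earlier results of these data known. Values in each of 5 libraries are given for the catalytic genes and the 3 members of each subunit group with the largest change. The same holds for the 2 reported genes of each other list with the smallest p. Values in Ad-GFP replicate 1, the remaining library, are given for part of these genes only. One gene of the ubiquitin and shuttle list is not reported here. Library totals were 16352843 to 21708973 counts.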

Additional observations from a re-analysis of the deposited data

How the results depend on the processing

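Median-of-ratios size factors, DESeq2, limma-voom, no low-count filter and summing same-name rows each gave 8 members higher and 4 lower in the comparison with Ad-GFP replicates 2 and 3, the same 8 and 4 genes. The stricter low-count filter gave 9 and 4. Library totals alone gave 19 and 1, an adjusted p under 0.01 gave 5 and 4, and a log2 change of at least 1 gave 0 and 0. Leaving out 1 Ad-RNF128 library of the 5 gave 7 to 8 higher and 4 lower. Psmb2 was lost and Psmd5 gained without Ad-RNF128 replicate 1, and Psma7 was lost without Ad-RNF128 replicate 2. With 1 control left out the set of higher genes changed more. Leaving out 1 of 6 gave 0 to 8 higher and 0 to 4 lower, the 8 and 4 only without Ad-GFP replicate 1.

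Median log2 changes with library totals alone were 0.24 (α ring), 0.19 (β ring), 0.16 (ATPases), -0.11 (other base genes) and 0.19 (lid), and over all 6 libraries 0.46, -1.88, -0.24, -0.77 and 0.12. With 1 of the 5 libraries left out they ran 0.025 to 0.15 for the α ring, 0.018 to 0.077 for the β ring, -0.050 to 0.056 for the ATPases, -0.29 to -0.22 for the other base genes, and 0.00061 to 0.073 for the lid.

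Over all 6 libraries the sign turned for 17 of the 32 genes followed singly, none of which passed there: Psma7 -1.84, Psmb6 -1.88, Psmb2 -0.078, Psmb5 -2.73, Psmc3 -1.63, Psmc5 -0.41, Psmd4 -1.36, Psmd1 0.24, Psmb9 -0.052, Psmb8 -1.56, Psmb10 -1.44, Psme2 -1.54, Psme1 -1.08, Psmf1 -0.79, Psmg4 -1.47, Sem1 -0.90 and Usp14 0.34. With library totals alone Psmd3 turned to 0.024 and Psmb7 to 0.12. With 1 of the 5 libraries left out Psmb7 ran from -0.097 to 0.023, positive without Ad-GFP replicate 3. The cause was not tested. Vcp stayed between -3.94 and -3.64 over 13 alternatives of the 5-library fit.

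Same-numbered libraries did not deviate together in the fit of 6 (correlations of -0.18, 0.01 and -0.14), where Ad-GFP replicate 1 stands apart. In the fit of 5 the 2 same-number correlations were 0.06 and 0.12. With 2 controls the deviations mirror each other, so these values cannot decide on pairing. The numbers were not taken to pair the samples. The replicate block gave 10 higher and 4 lower in 5 libraries and 0 and 0 in 6. In 5 libraries it leaves Ad-RNF128 replicate 1 without a control of its number. With 2 controls left, the comparison rests on few libraries, and 1 left-out control leaves a lone control assumed to vary like the other group.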
